A study of Mus musculus with 9 samples.

Results

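The genes described here encode mTOR, a protein kinase, and the subunits it shares or does not share between its complexes. Others encode proteins that regulate the complexes, directly or through Rheb, or that phosphorylate kinases which mTOR also phosphorylates. The members were named as Mtor, Rptor, Rictor, Mlst8, Akt1s1, Deptor, Rheb, Tsc1, Tsc2 and Pdpk1, and the rows of the value table annotated with these symbols were taken, keeping the brightest row where a gene had several. Of the 10 named genes 9 had an annotated row, each a single one, among 19505 genes. Akt1s1 had no row with its symbol alone in the annotation used here and is not analysed. RNA came from the peri-infarct region, the heart muscle that borders an infarct, of female SCID mice aged 80 to 100 days, a strain that lacks functional T and B lymphocytes and keeps its macrophages and natural killer cells. In all of them the left anterior descending artery had been ligated, and tissue was taken 4 weeks later. The mice had been injected with iCM-Ex, exosomes precipitated from cardiomyocytes made from induced pluripotent stem cells, with those cardiomyocytes themselves (iCM), or with saline. Each group had 3 biological replicates on 1 Clariom S array each. No uninfarcted heart was among the samples analysed, so all groups share the infarct, and the labels used here do not name the donor species of the stem cells. Nor do they say whether an array held the tissue of 1 animal.

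mTOR works in complexes that differ in their scaffold proteins. Raptor, the product of Rptor, defines mTORC1, which promotes protein synthesis and cell growth and restrains autophagy, and Rictor defines mTORC2, which phosphorylates AKT and related kinases. The GTPase Rheb switches mTORC1 on at the lysosome, and the TSC1-TSC2 complex switches Rheb off. In mice, loss of Raptor from heart muscle is known to impair the growth response of the heart to pressure overload, and mTOR signalling is widely studied after infarction.

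Signals are the authors' log2 values, and levels of different probe sets are not set against each other. All 9 arrays entered 1 limma fit across the 19505 genes, and a gene is said to have risen or fallen where its Benjamini-Hochberg adjusted p over all genes was below 0.05. That fit called 0.349% of genes for iCM-Ex against saline, 3.67% for iCM against saline and 1.07% for iCM-Ex against iCM. Higher and lower calls numbered 43 and 25, 262 and 454, and 155 and 53 in these comparisons. The split depended on scaling. Centring each array on its median negative control gave 577 and 29 for iCM-Ex against saline and 763 and 46 for iCM-Ex against iCM, and moved the median difference of all genes to 0.47 and 0.40. Centring on the median gene gave 43 and 38 for iCM-Ex against saline, and quantile normalisation gave 418 and 437 for iCM against saline and 159 and 139 for iCM-Ex against iCM. Control separation, the median positive control minus the median negative control on an array, was 3.77 ± 0.21 in iCM-Ex, 2.94 ± 0.41 in iCM and 3.44 ± 0.15 in saline (SD, n = 3 each), and the groups did not overlap in it. Cardiomyocyte markers had a mean over 9 genes of 16.62 to 17.04 on the iCM-Ex arrays, 16.17 to 17.99 on the iCM arrays and 16.80 to 17.68 on the saline arrays. Some single markers spread more widely. Others were bright and hardly varied, such as Pln at 18.85 to 19.34, which narrows the spread of the mean. Ryr2 ranged from 8.14 in iCM-Ex replicate 3 to 14.1 in iCM replicate 3, and Tnni3 from 13.01 in iCM replicate 2 to 17.98 in iCM-Ex replicate 3. In iCM-Ex replicate 3, 8 of the 9 lay above the 95th percentile of the negative controls, and all 9 did on every other array. Genes of other tissues stood out on 3 arrays. Averaged over 11 genes, lung markers reached 8.64 in iCM-Ex replicate 3 and 11.21 in iCM replicate 1, compared with 4.53 to 5.29 in saline. The mean of 11 fast skeletal muscle genes was 13.06 in iCM replicate 2, against 6.38 to 7.27 in saline, and that of 7 adipocyte genes was 8.86 there, against 4.11 to 5.06 in saline. Fibroblast markers averaged 15.12 to 16.14 on the iCM-Ex, 12.95 to 15.42 on the iCM and 14.28 to 16.10 on the saline arrays, endothelial markers 9.83 to 10.86, 10.35 to 11.21 and 10.78 to 11.38, and macrophage markers 11.85 to 12.83, 10.65 to 11.85 and 9.82 to 12.56. The part of cell makeup in the differences between groups was not tested. Leaving out those 3 arrays also leaves fewer replicates, so it cannot decide this.

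The 4 members called in at least 1 comparison were Rptor, Rheb, Tsc1 and Pdpk1, and their promoters are shown to give the sequence behind the genes whose signals moved. Each window is taken from RefSeq on GRCm38.p6 and covers 250 bases before to 50 bases after the annotated start, that is the flank and the first bases of the first exon, written 5′ to 3′ on the gene's strand. Capitals mark matches on either strand to the E-box CACGTG, the GC box GGGCGG, the CCAAT box CCAAT and the ETS site CCGGAAGT.
Rptor promoter, chr11:119602655-119602954, plus strand: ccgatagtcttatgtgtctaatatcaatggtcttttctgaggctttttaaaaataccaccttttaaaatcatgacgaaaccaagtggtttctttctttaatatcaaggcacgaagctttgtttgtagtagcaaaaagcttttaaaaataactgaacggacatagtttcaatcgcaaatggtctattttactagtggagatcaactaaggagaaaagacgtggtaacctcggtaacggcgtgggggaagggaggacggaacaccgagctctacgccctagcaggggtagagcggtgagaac
Rheb promoter, chr5:24842312-24842611, minus strand: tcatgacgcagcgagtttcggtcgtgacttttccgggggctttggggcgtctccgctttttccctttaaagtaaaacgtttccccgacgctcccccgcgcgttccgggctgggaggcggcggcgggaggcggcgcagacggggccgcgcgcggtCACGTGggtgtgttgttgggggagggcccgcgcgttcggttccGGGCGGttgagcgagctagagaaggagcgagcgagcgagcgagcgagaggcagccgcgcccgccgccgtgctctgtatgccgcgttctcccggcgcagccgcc
Tsc1 promoter, chr2:28640983-28641282, plus strand: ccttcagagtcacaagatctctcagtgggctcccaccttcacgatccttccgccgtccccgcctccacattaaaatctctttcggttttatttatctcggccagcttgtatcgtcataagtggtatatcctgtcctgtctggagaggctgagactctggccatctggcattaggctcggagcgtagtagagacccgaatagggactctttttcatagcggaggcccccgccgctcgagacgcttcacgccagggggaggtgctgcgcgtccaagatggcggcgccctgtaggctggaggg
Pdpk1 promoter, chr17:24141545-24141844, minus strand: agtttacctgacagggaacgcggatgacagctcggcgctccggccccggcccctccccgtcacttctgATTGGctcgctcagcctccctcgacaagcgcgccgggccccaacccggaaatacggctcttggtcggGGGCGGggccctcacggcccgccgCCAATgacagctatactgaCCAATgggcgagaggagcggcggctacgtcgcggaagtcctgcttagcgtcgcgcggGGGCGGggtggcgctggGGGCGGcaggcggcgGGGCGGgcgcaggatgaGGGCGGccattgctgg

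The Rptor and Tsc1 windows held none of the 4 motifs, and the Rptor window had 41.7% G and C, below the median of 52.7% over all 32851 windows. The Rheb window had 70.0% G and C and held 1 E-box and 1 GC box, and it was the 1 window with an E-box among the 10 windows of the members. Pdpk1 has 2 annotated windows, and the one shown held 5 GC boxes and 3 CCAAT boxes, while the other held no match. Over all windows 7.15% hold an E-box, 35.7% a GC box, 37.4% a CCAAT box and 3.89% the ETS site. No matches of different motifs overlapped in the windows shown. A match describes these letters only. No promoter window was listed for Deptor. On GRCm38.p6 Pdpk1, Mlst8 and Tsc2 all lie on chromosome 17, with 14 protein-coding genes between Pdpk1 and Mlst8 and 4 between Mlst8 and Tsc2.

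**Figure D1:**
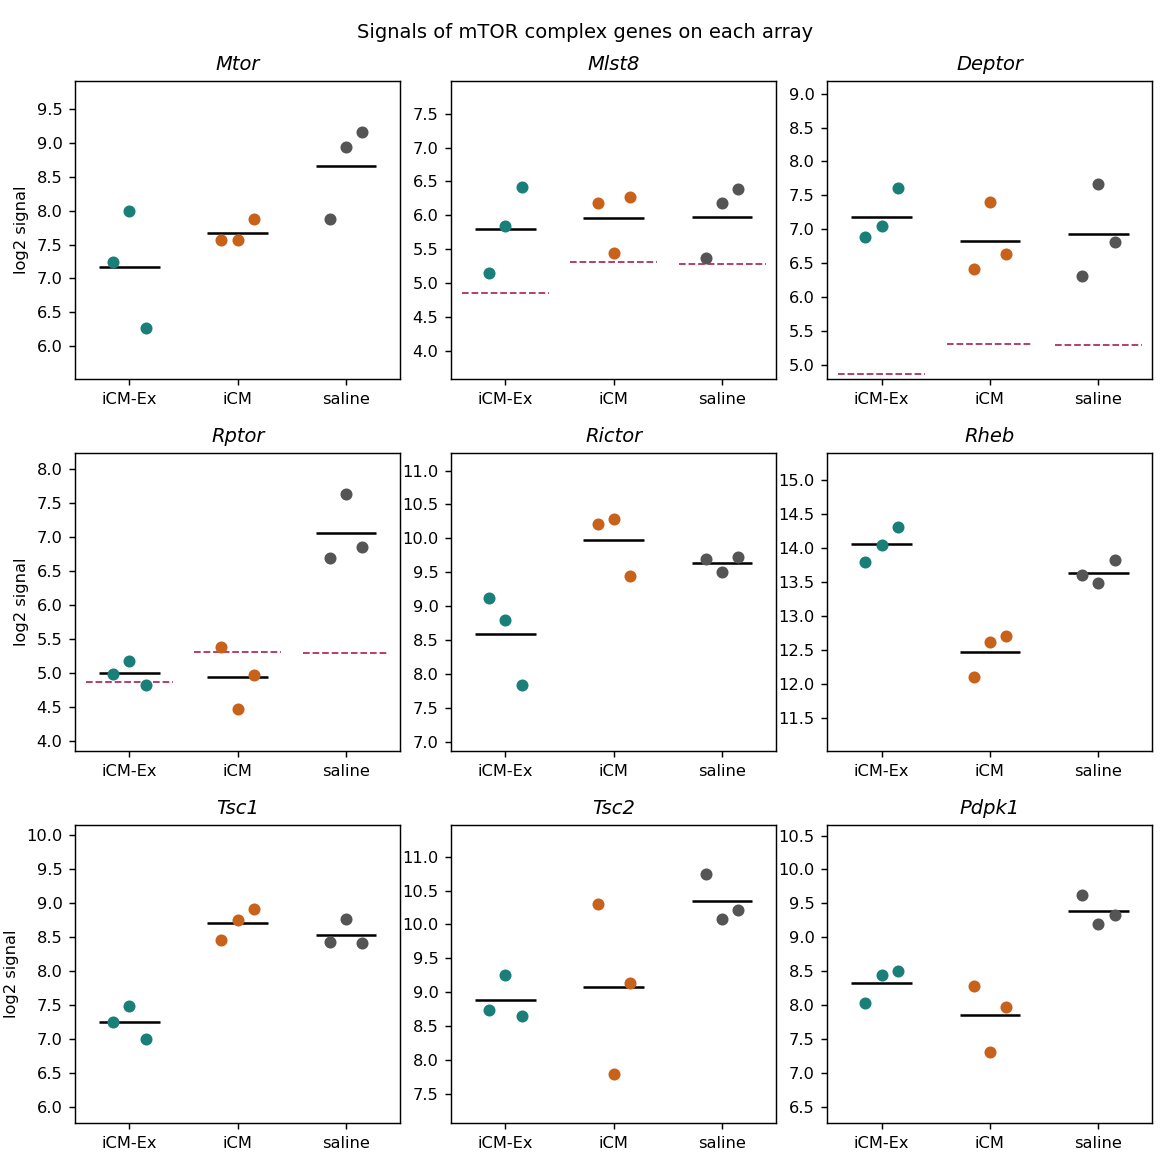
Log2 signal of each of the 9 measured genes (vertical axis, 4.4 log2 units high in every panel) on the 3 arrays of each group (points, replicates 1 to 3 from left to right), with the group mean (black bar) and, where it lies in the panel, the group's mean of the median negative control (dashed). Rptor lies near the negative controls on the iCM-Ex and iCM arrays, and Rheb is lowest on the iCM arrays.

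Rptor, the scaffold that brings substrates to mTORC1, was lower after both injections. On the log2 scale it measured 4.97, 5.17 and 4.82 on the iCM-Ex arrays, 5.38, 4.46 and 4.97 on the iCM arrays and 6.69, 7.63 and 6.85 on the saline arrays. Every iCM-Ex and every iCM array lay below every saline array, and the arrays of the 2 injected groups overlapped each other. Rptor fell by 2.07 ± 0.34 (log2, SE) in iCM-Ex relative to saline (limma adjusted p = 0.0437). It fell by 2.12 ± 0.34 in iCM relative to saline (limma adjusted p = 0.0133). The difference of iCM-Ex from iCM was 0.053, with a 95% interval of −0.71 to 0.81. In bulk tissue, fewer cells of a type and less RNA per cell cannot be told apart.

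The size of the Rptor fall is uncertain because the gene sat at the level of the negative controls in both injected groups. On the iCM-Ex arrays 50.6%, 57.6% and 51.6% of the negative control probe sets were dimmer than Rptor, on the iCM arrays 56.5%, 25.9% and 43.3%, and on the saline arrays 81.5%, 85.8% and 79.9%. Rptor thus lay in the middle of the controls on the injected groups' arrays and in their upper part in saline. The iCM call was lost without saline replicate 2 (limma adjusted p = 0.0592) and held without any other single array. The iCM-Ex call held without saline replicate 3 alone. Its limma adjusted p was 0.0838 and 0.183 without saline replicates 1 and 2, 0.0506, 0.0524 and 0.0646 when iCM replicate 1, 2 or 3 was dropped, and 0.0739, 0.106 and 0.236 when iCM-Ex replicate 1, 2 or 3 was. Without the 3 arrays with genes of other tissues the falls were 1.99 in iCM-Ex and 2.09 in iCM, with iCM then on 1 array and neither past the threshold (limma adjusted p = 0.361 and 0.164).

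Rheb, the small GTPase that binds and activates mTORC1, was lowest in iCM. It measured 13.80, 14.05 and 14.31 on the iCM-Ex arrays, 12.10, 12.61 and 12.71 on the iCM arrays and 13.61, 13.48 and 13.82 on the saline arrays. Every iCM array lay below every array of the other groups, whereas iCM-Ex and saline overlapped by 1 array. Rheb fell by 1.16 ± 0.28 in iCM relative to saline (limma adjusted p = 0.0497) and was 1.58 ± 0.28 higher in iCM-Ex than in iCM, a 3.0-fold higher signal (limma adjusted p = 0.0386). The difference of iCM-Ex from saline was 0.42, with a 95% interval of −0.20 to 1.04. Rheb was bright, above 98.6% to 99.3% of the negative controls on every array. The call against saline was lost whichever array was left out (limma adjusted p 0.0582 to 0.121). The call against iCM was lost without saline replicate 2 (0.074), iCM replicates 2 (0.0998) and 3 (0.0758) and iCM-Ex replicates 2 (0.151) and 3 (0.205). Under quantile normalisation the differences were −0.79 and 1.13 (limma adjusted p = 0.138 and 0.0745).

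Of the genes of the TSC complex, which turns Rheb off, Tsc1 fell in iCM-Ex relative to iCM and Tsc2 passed no test. Tsc1, which encodes the stabilising partner hamartin, had signals of 7.25, 7.48 and 7.0 on the iCM-Ex arrays, 8.46, 8.75 and 8.92 on the iCM arrays and 8.42, 8.76 and 8.42 on the saline arrays. All iCM-Ex arrays lay below all others, and iCM and saline overlapped. Tsc1 fell by 1.47 ± 0.27 in iCM-Ex relative to iCM, a 2.77-fold lower signal (limma adjusted p = 0.0386). Its difference of iCM-Ex from saline was −1.29 ± 0.27 and missed the threshold (limma adjusted p = 0.0774), and that of iCM from saline was 0.18. The call against iCM was lost without saline replicate 2 (limma adjusted p = 0.074), iCM replicates 2 (0.121) and 3 (0.0965), and iCM-Ex replicates 1 (0.0519), 2 (0.129) and 3 (0.205). Centred on negative controls, whose median was lowest in iCM-Ex, the difference was −1.02 (limma adjusted p = 0.0709). Of the negative controls, 88.3% to 92.3% were dimmer than Tsc1 in iCM-Ex, 91.6% to 94.5% in iCM and 93.6% to 94.1% in saline.

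Tsc2, which encodes tuberin, the part of the complex that acts on Rheb, had a signal of 8.73, 9.25 and 8.66 on the iCM-Ex arrays, 10.30, 7.79 and 9.13 on the iCM arrays and 10.75, 10.08 and 10.22 on the saline arrays. The iCM-Ex arrays all lay below the saline arrays, and the iCM arrays spread widely, with their lowest value in the array that also held muscle and fat genes. Tsc2 differed by −1.47 ± 0.54 in iCM-Ex and by −1.27 ± 0.54 in iCM relative to saline (limma adjusted p = 0.23 and 0.212). Without iCM replicate 2 the iCM difference was −0.63. Without iCM replicate 1, which held lung genes, it was −1.89 (limma adjusted p = 0.0479). Tbc1d7, the third subunit of the complex and not a member of the named set, fell by 1.33 ± 0.32 in iCM relative to saline (limma adjusted p = 0.048). It measured 5.74, 6.27 and 6.44 on the iCM-Ex arrays, 5.89, 5.58 and 6.49 on the iCM arrays and 7.19, 7.33 and 7.43 on the saline arrays. Both injected groups lay below saline on every array, and the difference of iCM-Ex from saline was −1.17 ± 0.32 (limma adjusted p = 0.127). In iCM replicate 2 Tbc1d7 lay at the median negative control, 5.58 against 5.56. Even its saline signals lay below the 95th percentile of the controls, which was 8.59 to 9.08 there. The size of the Tbc1d7 fall is therefore uncertain. The Tbc1d7 call held without iCM replicate 3 (limma adjusted p = 0.0403) or iCM-Ex replicate 1 (0.0492) and was lost without any other single array (0.0698 to 0.151). With control separation as a covariate the Tbc1d7 difference was −0.94 and without the 3 arrays with genes of other tissues −0.82 (limma adjusted p = 0.399 and 0.465).

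Pdpk1, the kinase that phosphorylates AKT, S6 kinase and SGK in their activation loops, was highest in saline. It measured 8.03, 8.44 and 8.50 on the iCM-Ex arrays, 8.27, 7.31 and 7.97 on the iCM arrays and 9.62, 9.20 and 9.32 on the saline arrays. No array of either injected group reached the lowest saline array. Pdpk1 fell by 1.53 ± 0.31 in iCM relative to saline, a 2.89-fold lower signal (limma adjusted p = 0.0296). In iCM-Ex its difference from saline was −1.06 ± 0.31 (limma adjusted p = 0.157), and the difference of iCM-Ex from iCM was 0.47, with a 95% interval of −0.23 to 1.17. The iCM call was lost without saline replicates 1 (limma adjusted p = 0.0628), 2 (0.0867) and 3 (0.0663), iCM replicates 2 (0.0897) and 3 (0.0553) and iCM-Ex replicates 2 (0.0502) and 3 (0.0511). It was also lost under quantile normalisation (limma adjusted p = 0.0501) and with centring on negative controls (0.0641).

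Mtor, which encodes the kinase itself, passed the threshold in no comparison. It measured 7.24, 7.99 and 6.27 on the iCM-Ex arrays, 7.56, 7.56 and 7.88 on the iCM arrays and 7.87, 8.94 and 9.16 on the saline arrays. Saline replicate 1 lay at the level of the highest injected arrays, so both injected groups overlapped saline by 1 array. The difference from saline was −1.49 ± 0.46 in iCM-Ex and −0.99 ± 0.46 in iCM (limma adjusted p = 0.173 and 0.263). Over the 9 arrays the genes whose signals, centred on their own mean, ran closest to Mtor were Pcnx, Dtx3 and Sbf2. Their root mean square differences from Mtor were 0.23, 0.25 and 0.26 log2 units, against a median of 0.95 over 17051 genes and a spread of 0.81 in Mtor itself. As the closest of 17051 genes they lie below that median by selection.

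Rictor, the scaffold of mTORC2, was lowest in iCM-Ex. It measured 9.12, 8.80 and 7.83 on the iCM-Ex arrays, 10.21, 10.29 and 9.44 on the iCM arrays and 9.70, 9.50 and 9.73 on the saline arrays. All iCM-Ex arrays lay below all others, with the lowest value in replicate 3, which held lung genes. In iCM replicate 1, which also held lung genes, Rictor measured 10.21. No difference passed the threshold. The difference of iCM-Ex was −1.06 ± 0.38 from saline and −1.40 ± 0.38 from iCM (limma adjusted p = 0.22 and 0.108), and that of iCM from saline was 0.34 ± 0.38. Without iCM-Ex replicate 3 the first was −0.69, and without the 3 arrays with genes of other tissues the second was −0.48. The change of Rptor minus that of Rictor, taken within arrays, was −1.01 in iCM-Ex and −2.46 in iCM relative to saline, and 1.45 in iCM-Ex relative to iCM. An exact permutation test over arrays, two-sided, gave 0.1 for each, which 3 against 3 arrays cannot go below (0.2 after Benjamini-Hochberg adjustment over 6 comparisons). These sizes are uncertain because Rptor lay at the negative controls in both injected groups, and for iCM-Ex and saline the nearest arrays all but touched, at −3.014 in iCM-Ex and −3.01 in saline. The same measure for Tsc1 minus Tsc2 differed by 0.18 in iCM-Ex and 1.45 in iCM relative to saline and by −1.27 in iCM-Ex relative to iCM, with overlapping arrays (exact two-sided permutation p = 0.7, 0.3 and 0.4).

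Mlst8, a subunit of both complexes, and Deptor, an inhibitor that binds mTOR in both, showed no called difference. Mlst8 measured 5.15, 5.84 and 6.41 on the iCM-Ex arrays, 6.19, 5.44 and 6.27 on the iCM arrays and 5.36, 6.18 and 6.39 on the saline arrays. Its differences from saline were −0.17, with a 95% interval of −1.09 to 0.74, in iCM-Ex and −0.0080, with an interval of −0.92 to 0.91, in iCM. Mlst8 lay close to the negative controls, above 54.7% to 83.5% of them on the iCM-Ex arrays, 47.8% to 72.5% on the iCM arrays and 56.7% to 72.4% on the saline arrays. Deptor measured 6.89, 7.05 and 7.60 on the iCM-Ex arrays, 6.42, 7.41 and 6.64 on the iCM arrays and 6.31, 7.67 and 6.81 on the saline arrays. Its differences from saline were 0.25, with a 95% interval of −0.65 to 1.16, in iCM-Ex and −0.11, with an interval of −1.01 to 0.80, in iCM. All groups overlapped for both genes.

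**Figure D2:**
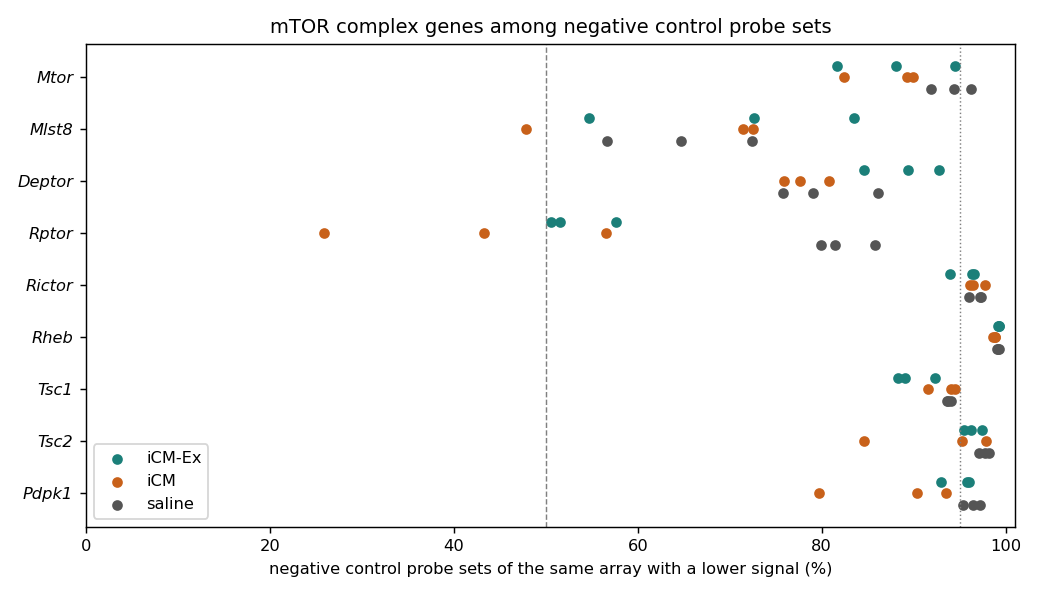
Share of the negative control probe sets on the same array that were dimmer than each gene (horizontal axis, percent), 1 point per array, coloured by group, with lines at 50% and 95%. Rheb lies above 98% everywhere, and Rptor moves to the middle of the controls on the iCM-Ex and iCM arrays.

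Against the 5222 negative control probe sets, 78 of the 81 signals of the 9 genes lay above the median control of their array and 31 lay above its 95th percentile. The median signal over all genes also lay between these limits on every array. The share of all genes past each limit was not counted. The 3 signals below the median control were Rptor in iCM replicates 2 and 3 and Mlst8 in iCM replicate 2.

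**Figure D3:**
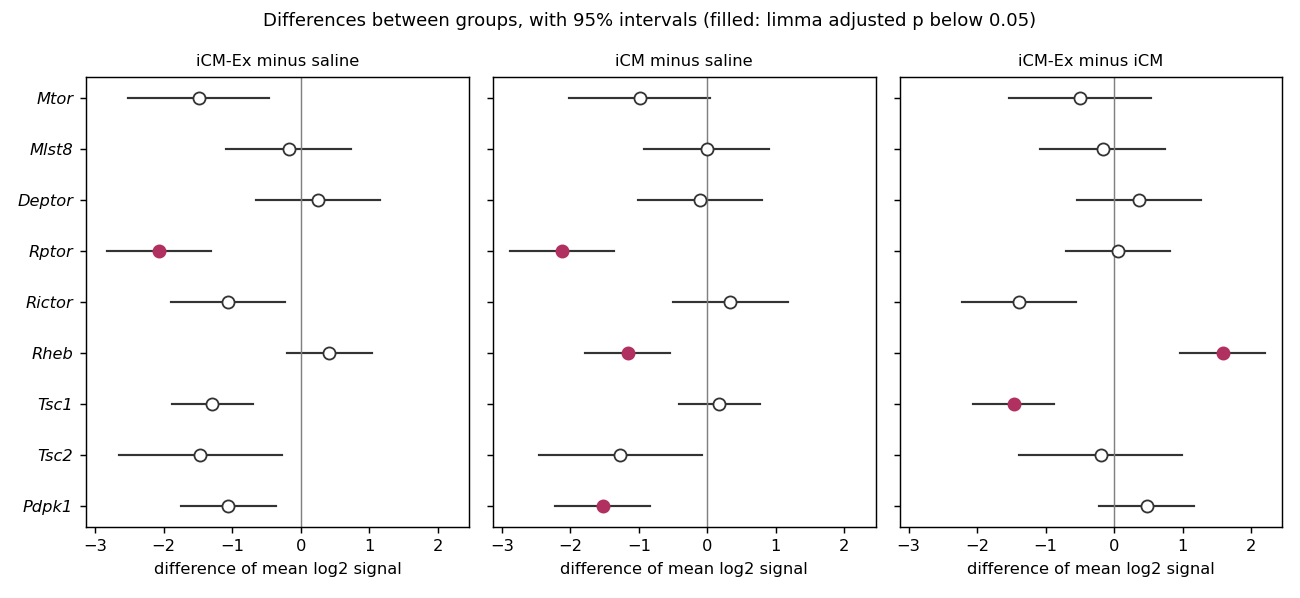
Difference of mean log2 signal between groups (horizontal axis) for each gene, with its 95% interval, in the 3 comparisons. Filled points passed a limma adjusted p of 0.05, which were Rptor for iCM-Ex against saline, Rptor, Rheb and Pdpk1 for iCM against saline, and Rheb and Tsc1 for iCM-Ex against iCM.

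For iCM-Ex against saline 1 of the 9 genes fell and none rose, where 0.128% of all genes fell and 0.220% rose. The median difference was −1.06 over the 9 genes and 0.044 over all genes, and with centring on negative controls −0.63 and 0.47. The arrays did not overlap for 5 of the 9 genes, all lower in iCM-Ex (Rptor, Rictor, Tsc1, Tsc2 and Pdpk1), where they did not overlap and were lower for 9.53% of all genes. For iCM against saline 3 of the 9 fell and none rose, where 2.33% of all genes fell and 1.34% rose. The median difference was −0.99 over the 9 genes and 0.080 over all, and the arrays did not overlap for the same 3 genes, all lower, against 10.2% of all genes. These comparisons share the saline arrays. Before adjustment, 6 of the 9 genes for iCM-Ex and 4 for iCM had a limma p below 0.05, against 15.2% and 20.5% of all genes. For iCM-Ex against iCM 1 of the 9 fell and 1 rose, where 0.272% of all genes fell and 0.795% rose. The arrays did not overlap for 3 of the 9, Rictor and Tsc1 lower and Rheb higher, against 20.2% of all genes. An unadjusted p below 0.05 was reached by 3 of the 9, against 14.5% of all genes. The median difference was −0.17 over the 9 genes and −0.044 over all, and with centring on negative controls 0.28 and 0.40. The moderated F test across the groups called Rptor, Rheb and Tsc1 (limma adjusted p = 0.0194, 0.0324 and 0.0305), 3 of the 9, where it called 3.32% of all genes. It called no member without the 3 arrays with genes of other tissues, without saline replicate 2 or without iCM-Ex replicate 3, and Rptor alone with the covariate or without iCM replicate 2, iCM replicate 3 or iCM-Ex replicate 2. Before adjustment it gave 7 of the 9 a p below 0.05, against 21.8% of all genes. The members were chosen with earlier results of these data known, so these shares are a description only.

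**Figure D4:**
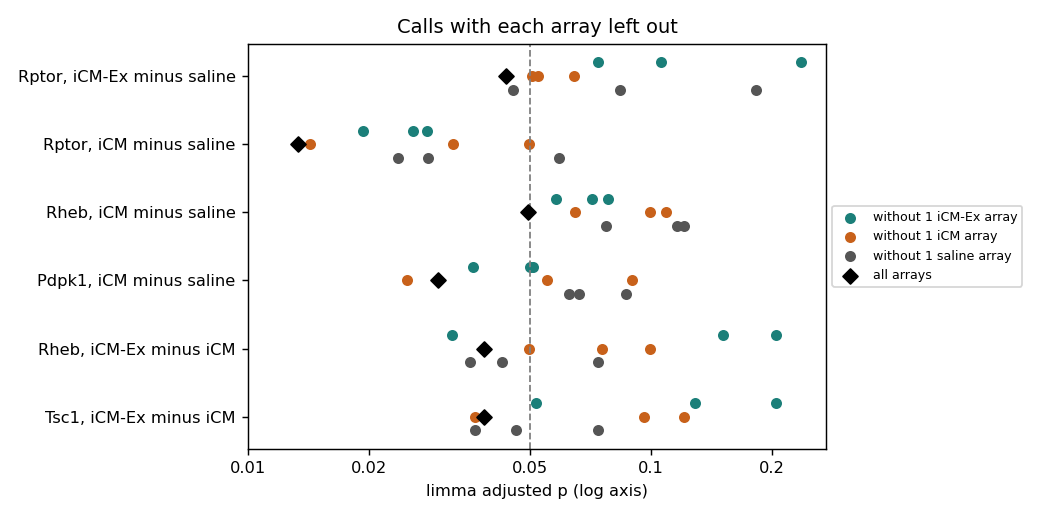
Limma adjusted p (log axis) of each called difference with all arrays (diamond) and with 1 array left out (points, coloured by the group of that array), with a line at 0.05. The Rptor difference of iCM from saline stays at or below 0.0592, and the Rheb difference of iCM from saline is above 0.05 whichever array is left out.

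Control separation was higher in iCM-Ex and lower in iCM than in saline on every array, so it moves with the groups compared. With it as a covariate, none of the 6 differences called among the members passed the threshold. The Rptor differences from saline were then −2.41 in iCM-Ex and −1.62 in iCM (limma adjusted p = 0.0666 and 0.184), and that of Pdpk1 in iCM was −1.12 (0.305). Rheb then differed by −1.25 in iCM relative to saline and by 1.73 in iCM-Ex relative to iCM, and Tsc1 by −1.56 in iCM-Ex relative to iCM (limma adjusted p = 0.249, 0.655 and 0.678). Leaving out the 3 arrays with genes of other tissues gave −0.93 and 1.22 for Rheb, −1.41 for Pdpk1 and −1.55 for Tsc1 in the same comparisons, with 1 iCM array left and none past the threshold.

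**Figure D5:**
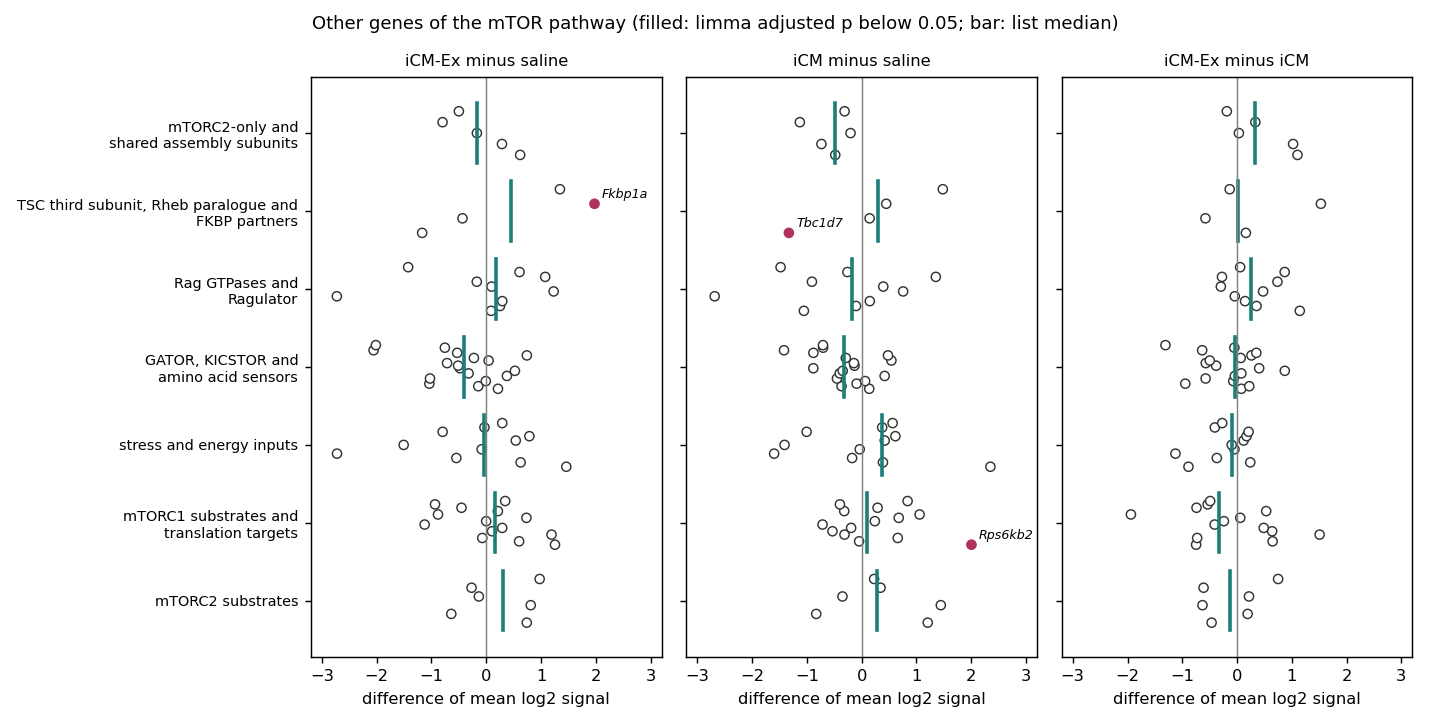
Difference of mean log2 signal (horizontal axis) of the 68 other measured genes of the pathway, by list, in the 3 comparisons. Points are genes, filled where the limma adjusted p was below 0.05, and bars are list medians. Filled points are Fkbp1a for iCM-Ex against saline and Tbc1d7 and Rps6kb2 for iCM against saline.

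Beyond the named set, 74 other genes of the pathway were listed and 68 were measured. For iCM-Ex against saline 1 of the 68 rose and none fell (1.47%, against 0.349% of all genes called). For iCM against saline 1 rose and 1 fell (2.94%, against 3.67%). For iCM-Ex against iCM limma called none, against 1.07% of all genes. At an unadjusted p below 0.05 the counts were 18, 17 and 11 of the 68, where 15.2%, 20.5% and 14.5% of all genes had one. Their medians were −0.019, −0.14 and −0.0044, against 0.044, 0.080 and −0.044 over all genes. Fkbp1a, which encodes FKBP12, the protein through which rapamycin binds mTOR, rose by 1.98 ± 0.34 in iCM-Ex relative to saline (limma adjusted p = 0.0462). It measured 11.07, 11.60 and 12.03 on the iCM-Ex arrays, 10.40, 9.74 and 9.98 on the iCM arrays and 9.21, 9.90 and 9.66 on the saline arrays. All iCM-Ex arrays lay above all others, and the call held without iCM-Ex replicate 1 (limma adjusted p = 0.0402) and was lost without any other single array (0.0565 to 0.237). It was lost too with control separation as a covariate and without the 3 arrays with genes of other tissues, where Fkbp1a differed by 1.73 and 1.75 (limma adjusted p = 0.112 and 0.374). Rps6kb2, which encodes the S6 kinase S6K2, an mTORC1 substrate, rose by 2.0 ± 0.31 in iCM relative to saline (limma adjusted p = 0.011). It measured 11.13, 10.48 and 10.67 on the iCM-Ex arrays, 11.44, 11.92 and 11.17 on the iCM arrays and 9.74, 9.51 and 9.25 on the saline arrays. Both injected groups lay above saline on every array, with a difference of 1.26 ± 0.31 in iCM-Ex (limma adjusted p = 0.104). The iCM call was lost without saline replicate 2 alone among single arrays (limma adjusted p = 0.0531). Adjusting for control separation gave a difference of 1.51 (0.154), and leaving out the 3 arrays 1.67 (0.199).

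In the other lists no gene passed the threshold, and the 2 genes of each with the smallest F-test p are given. Among the 10 Rag GTPase and Ragulator genes, whose products hold mTORC1 at the lysosome, Rragd averaged 8.49 ± 0.87 in iCM-Ex, 8.53 ± 0.68 in iCM and 11.21 ± 1.66 in saline (SD, n = 3 each). Rragd differed from saline by −2.73 in iCM-Ex and −2.68 in iCM (limma adjusted p = 0.135 and 0.0792). With 1 array left out they ranged from −3.57 to −1.91 and from −3.52 to −1.87, and each passed the threshold in 1 of 9 such fits, without saline replicate 3 (limma adjusted p 0.0423 to 0.437 and 0.0285 to 0.219 over the 9). Rraga, which encodes the GTPase RagA, differed from saline by 0.090 in iCM-Ex and −1.05 in iCM (limma adjusted p = 0.913 and 0.066). Among 18 measured GATOR, KICSTOR and sensor genes, which relay amino acid supply, Flcn averaged 6.84 ± 0.84, 7.47 ± 0.33 and 8.89 ± 0.78 in iCM-Ex, iCM and saline. Flcn, which encodes folliculin, differed from saline by −2.06 in iCM-Ex and −1.42 in iCM, and its partner gene Fnip2 by −2.01 and −0.71 (limma adjusted p = 0.102, 0.132, 0.101 and 0.436). With all arrays, Rragd, Flcn and Fnip2 averaged lower in both injected groups and Rraga in iCM alone, none past the threshold.

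Of the 11 stress and energy genes, Prkaa2, which encodes the muscle catalytic subunit of AMPK, the energy sensor that restrains mTORC1, averaged 10.03 ± 0.43 in iCM-Ex, 11.16 ± 0.57 in iCM and 12.75 ± 1.43 in saline. It differed from saline by −2.72 and −1.60, and Prkab2, which encodes another AMPK subunit, by −1.51 and −1.41 (limma adjusted p = 0.0933, 0.177, 0.122 and 0.0809). With 1 array left out the Prkaa2 differences ranged from −3.54 to −2.21 and from −2.42 to −1.09, and each passed the threshold in 1 of 9 such fits, without saline replicate 3 (limma adjusted p 0.0135 to 0.349 and 0.0242 to 0.398 over the 9). Among the 5 mTORC2 and assembly genes, Tti1, which helps fold mTOR into its complexes, differed by −0.80 in iCM-Ex and −1.13 in iCM (limma adjusted p = 0.278 and 0.0835). Mapkap1, which encodes the mTORC2 subunit SIN1, differed by 0.62 and −0.48 (limma adjusted p = 0.536 and 0.558). Of 6 measured mTORC2 substrate genes Akt1 differed from saline by 0.74 in iCM-Ex and 1.21 in iCM, and Akt2 by −0.64 and −0.83 (limma adjusted p = 0.406, 0.114, 0.475 and 0.257). The kinase genes of the AKT family thus lay on opposite sides of saline, with neither past the threshold.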

How the data were processed

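The deposited log2 signals, 1 per probe set and array, came from Affymetrix Expression Console as run by the authors, per the submitters' processing notes. Neither its version nor how background and scale were handled is known from those notes. That they are log2 was judged from their range. Of 28846 rows, 5222 were negative and 1324 positive controls and 22206 were gene rows. A single gene symbol was annotated for 19572 gene rows. The other 2634 had none or more than 1 symbol. The brightest row was kept for 55 genes with several, which left 19505 genes. No further normalisation was applied. limma 3.58.1 in R 4.3.3 fitted a mean per group over all 9 arrays with moderated variances (4.23 prior and 6 residual degrees of freedom), and Benjamini-Hochberg adjustment ran over all genes within a comparison. The fit was tested on simulated data. Errors are the SD over 3 arrays or the moderated SE. Precision is limited by the number of arrays, and p-values measure the spread between biological replicates as labelled.

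The members, lists and marker genes were chosen with earlier results of these data known. All members were named. Of each other pathway list, the text names up to 4 genes past the threshold in a comparison, by smallest p, or else the 2 with the smallest F-test p. For Mtor it names the 3 genes nearest in centred signal, without predicted genes and receptors of smell or the vomeronasal organ. Alternatives were quantile normalisation, 2 centrings, a filter on low signals, all rows but controls, trend and robust moderation, control separation as a covariate, fits of 2 groups, the replicate number as a block, and arrays left out. Same-numbered arrays did not deviate together (9 pairs, correlations of −0.26 to 0.068), so the numbers were not taken to pair samples. The 18 pairs with different numbers ran from −0.16 to 0.25, with 4 above 0.1. What those pairs share was not tested. Promoter windows were listed for 9 of the 10 members, Akt1s1 included, and all 1666 overlapping windows on opposite strands matched as reverse complements.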

Additional observations from a re-analysis of the deposited data

How the results depend on the processing

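Rptor and Mlst8 lie close to the negative controls, where the size of a difference is uncertain, as does Tbc1d7 in iCM replicate 2. Tsc1 and Deptor also passed the 95th percentile of the controls on no array, and Mtor passed it in saline replicate 3 alone. With the 95th percentile of the negative controls as the limit, chosen after seeing the data, 31 member signals lay above it, against 78 above the median. The genes called numbered 68 for iCM-Ex against saline, 716 for iCM against saline, 208 for iCM-Ex against iCM and 647 by the F test. Centring on negative controls gave 606, 678, 809 and 1430. Centring on the median gene gave 327 for iCM-Ex against iCM, and the filter on low signals gave 330. Trend and robust moderation gave 17 for iCM-Ex against saline. The control separation covariate gave 5, 33, 0 and 74. Fits of 2 groups gave 1, 279 and 13. Leaving out the 3 arrays with genes of other tissues gave 0, 6, 0 and 0. Leaving out 1 array at a time gave 0 to 163, 126 to 803, 0 to 401 and 43 to 723. The causes of these shifts were not tested, and leaving out arrays also leaves fewer replicates.

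The replicate block gave 0, 338, 18 and 205. Same-numbered arrays share only a number. With the replicate block Rptor stayed past the threshold in iCM against saline (limma adjusted p = 0.0413). It missed it in iCM-Ex against saline (0.0986), as did Rheb (0.0736 against saline, 0.0651 between the injected groups), Pdpk1 (0.0623), Tsc1 (0.0777), Fkbp1a (0.0986) and Tbc1d7 (0.0676), and the F test called no member.

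Trend and robust moderation and fits of 2 groups each ended every member call but Rptor in iCM against saline (limma adjusted p = 0.0547 and 0.0806 for Rptor in iCM-Ex against saline, 0.141 and 0.102 for Rheb and 0.052 and 0.0739 for Pdpk1 in iCM against saline, and 0.104 and 0.065 for Rheb and 0.0794 and 0.065 for Tsc1 in iCM-Ex against iCM). With trend and robust moderation the F test called Rptor alone. Both settings also ended the calls of Fkbp1a (0.0783 and 0.0837) and Tbc1d7 (0.0649 and 0.0895), as did the filter on low signals (0.0509 and 0.0504), which ended that of Rheb against saline (0.0586). Quantile normalisation and centring on negative controls ended that of Tbc1d7 (0.0527 and 0.0773), and the centring also that of Rheb against saline (0.0707).

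Signs turned only for differences that were not called. Centred on negative controls, Mlst8 differed by 0.25 in iCM-Ex from saline and 0.28 from iCM, and Tsc2 by 0.25 in iCM-Ex from iCM. With the covariate, iCM minus saline was 0.60 for Mlst8 and 0.42 for Mapkap1, and iCM-Ex minus iCM was −0.79 for Rptor and −0.21 for Pdpk1. Without the 3 arrays iCM minus saline was −0.20 for Rictor and 0.30 for Mlst8. Leaving out 1 array, Mlst8 ranged from −0.48 to 0.15 for iCM-Ex against saline, −0.31 to 0.25 for iCM against saline and −0.47 to 0.16 for iCM-Ex against iCM. Deptor ranged from −0.057 to 0.62 for iCM-Ex against saline and −0.42 to 0.26 for iCM against saline. For iCM-Ex against iCM, Rptor ranged from −0.19 to 0.27 and Tsc2 from −0.84 to 0.42.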
